A study of Mus musculus with 5 samples.

Results

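The cells described here are the non-cycling effector CD8 T cells of mouse hearts, selected on raw counts of unique molecular identifiers (UMIs, one per captured transcript molecule) in single-cell RNA sequencing. A cell barcode was kept when mitochondrial genes held at most 10% of its UMIs. A kept barcode was chosen as an effector CD8 T cell by at least 2 UMIs over Cd3d, Cd3e and Cd3g, at least 1 over Cd8a and Cd8b1, none of Cd4, at least 1 over Gzmb, Prf1 and Pdcd1, at most 1 over the cycling genes Mki67, Top2a, Birc5, Cdk1 and Ccnb2, and at most 1 over the B cell and macrophage genes Cd79a, Ms4a1, C1qa, C1qb and C1qc. This left 2165 of 38337 kept barcodes (47319 were deposited). Of them, 320 and 6 came from control replicates 1 and 2, and 39, 1393 and 407 from disease replicates 3, 4 and 5.

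Every mouse in the study lacked Pdcd1, the gene of PD-1. Control mice (Ctla4+/+Pdcd1-/-, 4 mice, 2 libraries) had both copies of Ctla4, and disease mice (Ctla4+/-Pdcd1-/-, 10 mice, 3 libraries) had lost a copy, a model of the myocarditis that immune checkpoint inhibitor drugs can cause. Per the labels, hearts were digested with enzymes and pooled, and nucleated living cells (DRAQ5 positive, DAPI negative) were sorted and made into 10x Genomics 5′ libraries. Which mice went into which library, their ages and the days of preparation are not given in the sources used here, so libraries were the replicates. P-values measure the spread between libraries, which may be technical, except in the comparison with CD4 T cells, where the limit is given. The genotype labels of the single libraries name Pdcd1, Pdcd2, Pdcd1, Pdcd2 and Pdcd3 in turn, and the number of the DRAQ stain also runs up from library to library. The series' own design text names Pdcd1 alone, and that reading was used.

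Effector CD8 T cells arise when a naive CD8 T cell meets its antigen. They carry granzymes and perforin, which kill the cell they touch, and secrete interferon-gamma and chemokines. PD-1 and CTLA-4 are receptors that restrain T cells, PD-1 mostly in tissues and CTLA-4 mostly by competing for the costimulatory ligands that CD28 needs. In myocarditis such cells enter the heart muscle, and a T cell clone that has multiplied shows as many cells with the same antigen receptor.

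The genes of the rule describe the members and carry no test. Pdcd1 was the effector gene found in most members: 1978 of 2165 had at least 1 Pdcd1 UMI, 1306 had Gzmb (granzyme B, which triggers death of the target cell) and 1019 had Prf1 (perforin, which lets granzymes in). All 3 genes were found in 644 members, and 540 were chosen by Pdcd1 alone. A median member had 7 UMIs over the 3 effector genes, 24 over the CD3 genes and 11 over the CD8 genes. Just inside the limits lay 182 members with a single effector UMI, 42 with exactly 2 CD3 UMIs and 71 with a single CD8 UMI. Just outside lay 42 barcodes with 1 CD3 UMI, 44 with 1 Cd4 UMI, 85 with 2 cycling UMIs and 356 with 2 B cell or macrophage UMIs, each meeting every other condition.

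The targeted genes were read first. Pdcd1 was at 624 and 816 CPM (the share of a gene in the UMIs summed over the members of a library, on the usual counts-per-million scale) in control hearts against 603, 1147 and 908 CPM in disease replicates 3, 4 and 5. Ctla4 was at 326 and 215 CPM in control hearts against 245, 596 and 552 CPM in disease hearts. Disease replicates 4 and 5 were above both controls in Ctla4 and disease replicate 3 lay between the controls, so the groups overlapped. The log2 fold change of Ctla4, disease over control, was 0.57 (SE 0.49, edgeR quasi-likelihood test, Benjamini-Hochberg adjusted p = 0.731). Reads were counted per gene and the deleted exons are not given in the sources used here, so transcripts of a disrupted allele are not told apart from intact ones and neither gene checks the labels. Of the other effector genes of the rule, given with no test, Gzmb was at 472 and 558 CPM against 674, 823 and 568 CPM, and Prf1 at 149 and 43.0 CPM against 107, 519 and 302 CPM. In control replicate 2 these values are 13 and 1 UMIs.

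Members held 1842056 and 23282 UMIs in control replicates 1 and 2, and 167540, 6343114 and 2127010 UMIs in disease replicates 3, 4 and 5. Their median depth per cell ran from 3222 UMIs in control replicate 2 to 5139 in control replicate 1. A single UMI in the 6 members of control replicate 2 amounts to 43.0 CPM, so that library can show a level only coarsely. It had fewer than 10 members and stayed out of the gene fit, in which control replicate 1 stood alone against the 3 disease libraries and was assumed to vary as they do. Scrublet, a doublet caller, marked 31, 0, 2, 87 and 35 members of the 5 libraries in order as doublets. These were 9.69, 0, 5.13, 6.25 and 8.60% of members, against 4.16, 1.48, 2.11, 4.12 and 3.29% of all kept barcodes. Members were thus called more often in every library but control replicate 2. Between 53 and 104 kept barcodes were shared by a pair of libraries, and 1 member barcode was shared, by control replicate 1 and disease replicate 5.

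The label was checked against markers that the rule did not use. Nkg7, a cytotoxic granule membrane protein, was found in 93.1, 100, 94.9, 95.3 and 93.8% of members after each cell was thinned to 1000 UMIs (97.4 to 100% without thinning), in the order control replicates 1 and 2 and disease replicates 3, 4 and 5. Thinning left 319, 6, 39, 1369 and 406 members. Endothelial cells should lack Nkg7, and it was found in 2.57, 0.084, 0.639, 8.04 and 1.31% of cells chosen by Pecam1 and Cdh5 without Ptprc and fibroblast genes (endothelial-rule cells, median 2339 to 3262 UMIs per cell against 3222 to 5139 in members). Ccl5, a chemokine that draws T cells and monocytes, was found in 95.3 to 100% of thinned members and in 0.504 to 29.6% of thinned endothelial-rule cells, with the highest background in disease replicate 4. Ncr1, which marks natural killer cells, was at 4.89, 0, 0, 0.158 and 0 CPM in members, and Trdc, the constant region of the delta receptor chain, was at 0, 0, 0, 1.58 and 0.470 CPM. The 7 gamma-delta T cell markers summed to 100, 0, 59.7, 180 and 160 CPM in members and to 34.9, 0, 6.18, 23.0 and 18.0 CPM in the CD8 T cells without an effector UMI. Foxp3, the master factor of regulatory T cells, was at 0, 0, 0, 3.0 and 3.76 CPM. The 5 regulatory T cell markers summed to 478, 301, 460, 710 and 587 CPM in members against 378, 22.1, 55.6, 219 and 144 CPM in those other CD8 T cells. The 7 natural killer markers summed to 177, 1074, 131, 142 and 101 CPM, and the high value is 25 UMIs in the 6 cells of control replicate 2.

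Transcripts of other heart cells were present in the members of every library. The 10 endothelial markers summed to 1615 and 85.9 CPM in control hearts against 1285 to 3671 CPM in disease hearts, and the 10 fibroblast markers to 5335 and 472 CPM against 1313 to 3504 CPM. The 10 macrophage markers, 3 of them limited by the rule, summed to 498 and 129 CPM against 227 to 422 CPM. Hemoglobin and Alas2, 5 red cell genes, reached 579 CPM in disease replicate 4 and were at 25.4 CPM or less elsewhere. The part of these transcripts in the results below was not tested, except where endothelial-rule values stand beside a gene.

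Effector CD8 T cells were numerous in control replicate 1 and disease replicates 4 and 5 and scarce in control replicate 2 and disease replicate 3. Their share of kept barcodes was 3.45% (95% Wilson interval 3.1 to 3.84) in control replicate 1 and 0.107% (0.0492 to 0.234) in control replicate 2. In disease hearts (replicates 3, 4 and 5) the shares were 0.670% (0.491 to 0.915), 14% (13.3 to 14.7) and 5.29% (4.81 to 5.81). Disease replicates 4 and 5 exceeded both controls and disease replicate 3 lay between the controls. The mean share was 1.78% ± 2.36 (SD, n = 2) in control and 6.65% ± 6.76 (SD, n = 3) in disease libraries, a difference of 4.87 percentage points that was within the spread between libraries (two-sided exact permutation test over the 10 relabellings of 5 libraries, p = 0.4, 0.5 after Benjamini-Hochberg adjustment over 3 shares). This design cannot give a p below 0.1. Without disease replicate 4 the difference was 1.20 points.

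Within the lymphocytes the same libraries were high and low. The members made up 58.9 and 6.12% of T cells in control hearts, against 28.1, 65.2 and 65.3% in disease replicates 3, 4 and 5. Among CD8 T cells, that is members plus cells that met the rule without any UMI of Gzmb, Prf1 or Pdcd1, they made up 89.6 and 15.4% in control hearts against 54.9, 90.1 and 90.0% in the disease libraries. The Wilson intervals of control replicate 1 and disease replicates 4 and 5 overlapped (86.0 to 92.4, 88.5 to 91.5 and 86.9 to 92.5%). Thinned to 1000 UMIs per cell, these 3 shares were 67.4, 80.2 and 70.2%, and with Gzmb and Prf1 alone as effector genes 59.7, 71.1 and 63.3%, so disease replicate 4 was the highest in both. The mean differences were 20.3 and 25.8 percentage points (exact permutation p = 0.5 for both, adjusted p = 0.5), and without control replicate 2 they turned to -6.06 and -11.3 points. The other CD8 T cells numbered 37, 33, 32, 153 and 45, and cycling cells that otherwise met the rule numbered 30, 1, 4, 141 and 46, in the order of the libraries.

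**Figure D1:**
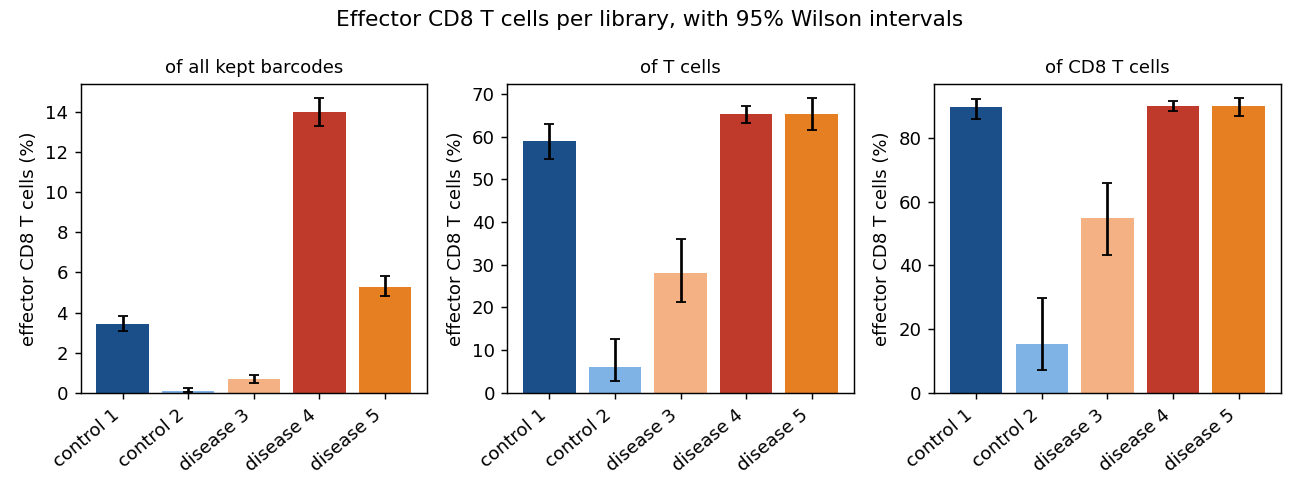
Percent of kept barcodes, of T cells and of CD8 T cells that were effector CD8 T cells (y axes, percent), by library (x axes), with 95% Wilson intervals that cover counting error only. Control 1 and disease 4 and 5 are high and control 2 and disease 3 are low in all 3 panels, so the groups overlap.

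What the members carried beyond the rule was read against the other CD8 T cells of the same library, in the 4 libraries with at least 10 members. The rule used this contrast through 3 genes, so it is a description with no test. The members were above the other CD8 T cells in all 4 libraries in 11 of 14 measured cytotoxic granule genes, 11 of 18 inhibitory receptor and exhaustion genes, 11 of 16 glycolysis genes, 11 of 20 receptor signalling genes and 10 of 16 effector transcription factors. They were below them in 15 of 17 memory and naive genes. Over all 10335 genes tested, 2213 (21.4%) were above and 752 (7.28%) below in all 4 libraries.

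Gzma (granzyme A) was at 675, 710, 498 and 353 CPM in the members of control replicate 1 and disease replicates 3, 4 and 5, and at 23.2, 0, 15.9 and 22.5 CPM in the other CD8 T cells. Lag3, an inhibitory receptor that binds MHC class II, was at 595, 239, 895 and 829 CPM in members and at 198, 18.5, 90.2 and 108 CPM in the others. Cxcr6, a homing receptor of tissue T cells, was at 542, 400, 936 and 733 CPM against 93.0, 6.18, 83.2 and 72.2 CPM. For these genes the lowest member value exceeded the highest value of the other CD8 T cells. The mean log2 ratio, with 10 CPM added to both sides, was 4.58 for Gzma, 2.67 for Lag3 and 3.40 for Cxcr6, and it was 2.83 for Havcr2 (TIM-3, an inhibitory receptor).

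The memory and naive genes ran the other way. Il7r, the receptor chain for the survival cytokine interleukin 7, was at 17.4, 71.6, 25.1 and 32.4 CPM in members and at 290, 568, 439 and 392 CPM in the other CD8 T cells. Lef1, a transcription factor of naive cells, was at 6.51, 17.9, 7.25 and 13.6 CPM against 203, 216, 241 and 212 CPM. Tcf7, which keeps T cells able to renew, was at 8.14, 59.7, 10.6 and 14.1 CPM against 75.5, 247, 159 and 167 CPM. The mean log2 ratios were -3.30, -3.45 and -2.51. The members of disease replicate 3 had the highest Tcf7, Il7r and Lef1 of these 4 libraries, and the 39 cells there are the fewest.

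**Figure D2:**
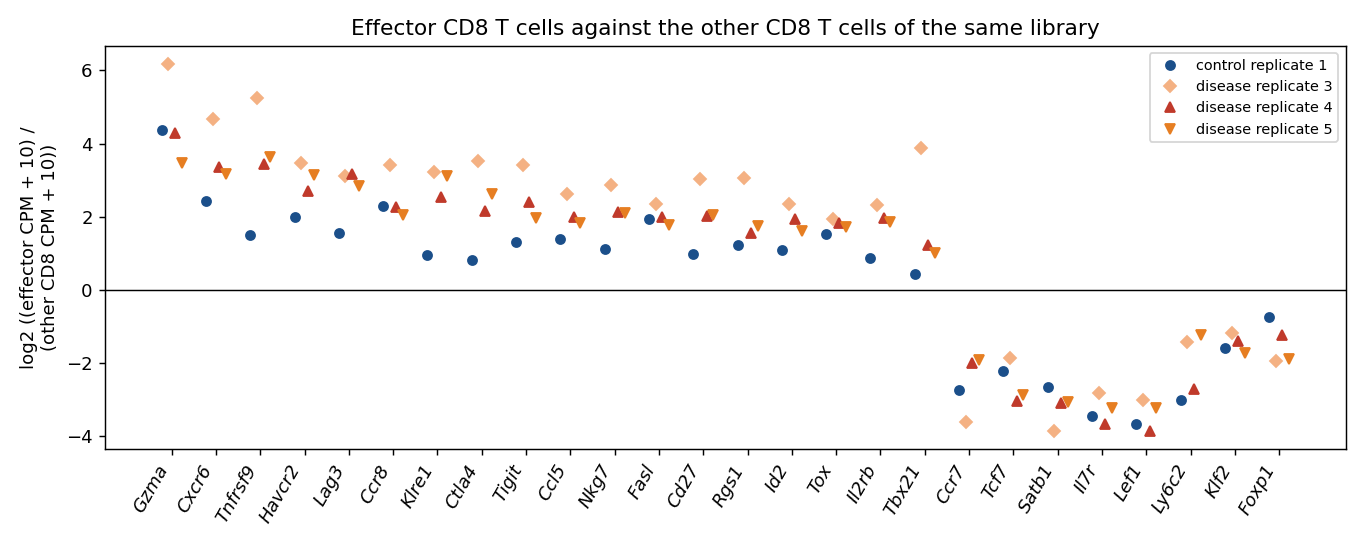
Log2 ratio of CPM in effector CD8 T cells to CPM in the other CD8 T cells of the same library, each with 10 CPM added (y axis), for genes of the lists (x axis); each symbol is one of the 4 libraries with at least 10 members. Gzma, Cxcr6, Lag3 and Havcr2 lie above 0 in every library, and Il7r, Lef1 and Tcf7 lie below 0.

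The next comparison asked which genes of effector CD8 T cells differed between disease and control hearts. Of 10335 genes tested, 4 rose (0.0387%) and 382 fell (3.7%) in the disease libraries, 386 in all (3.73%; edgeR quasi-likelihood test, adjusted p under 0.05). None of the 4 genes that rose was in the 15 functional lists, and 10 list genes fell. The median log2 fold change over all genes tested was 0.05. Without disease replicate 3 no gene passed (1653 had an unadjusted p under 0.05), and with the 6 cells of control replicate 2 in place of control replicate 1 the number was 5. The 4 rises became 17 without disease replicate 4, 29 without disease replicate 5 and 22 with control replicate 2 included.

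No granule gene passed the test: of 19 in the list 14 had enough counts, and 0 rose and 0 fell, with a median log2 fold change of 0.30. Nkg7 was at 4080 and 2835 CPM in control hearts against 4309, 5204 and 4549 CPM in disease replicates 3, 4 and 5 (log2 fold change 0.22, SE 0.22, edgeR adjusted p = 0.764). Gzmk, a granzyme of early effector and memory cells, was at 264 and 301 CPM against 454, 243 and 243 CPM, so that disease replicate 3 was the high library (0.21, SE 0.39, edgeR adjusted p = 0.875, and -0.14 without that library). Gzma was at 675 and 43.0 CPM against 710, 498 and 353 CPM (-0.39, SE 0.36, edgeR adjusted p = 0.74), and the 43.0 CPM of control replicate 2 is 1 UMI. The log2 fold change of Gzma with that library included was 0.28.

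Of 16 cytokine and chemokine genes 0 rose and 1 fell, with a median log2 fold change of 0.36 (0.16 without disease replicate 4). Ifng (interferon-gamma) was at 309 and 215 CPM in control hearts against 454, 386 and 348 CPM in disease replicates 3, 4 and 5, so the groups did not overlap (log2 fold change 0.36, SE 0.29, edgeR adjusted p = 0.717). All 3 disease libraries were above control replicate 1 in 2385 genes (23.1%), and the share of genes above both controls was not counted in members. Ccl5 was at 23490 and 24096 CPM against 24615, 30831 and 24995 CPM (0.21, SE 0.20, edgeR adjusted p = 0.75). Spp1, which encodes osteopontin, a secreted protein that many macrophages also make, was at 34.2 and 0 CPM in control hearts against 17.9, 510 and 302 CPM in disease hearts. Its 2 high libraries were disease replicates 4 and 5, and the fold change of 3.14 on the log2 scale had an SE of 1.26 (edgeR adjusted p = 0.305). The gene that fell was Tnfsf11 (the cytokine RANKL), at 30.9 and 0 CPM against 0, 2.84 and 3.29 CPM, where control replicate 2 had no UMI (-3.36, SE 0.50, edgeR adjusted p = 0.0156).

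Among the inhibitory receptors and exhaustion genes 0 of 18 rose and 1 fell, with a median log2 fold change of 0.21 that turned to -0.05 without disease replicate 4. Lag3 was at 595 and 85.9 CPM in control hearts against 239, 895 and 829 CPM in disease replicates 3, 4 and 5 (0.20, SE 0.62, edgeR adjusted p = 0.929), and leaving out disease replicate 4 or 5 turned its fold change to -0.05 or -0.01. Havcr2 was at 122 and 43.0 CPM against 101, 249 and 199 CPM (0.68, SE 0.49, edgeR adjusted p = 0.686), and Tigit, which competes for the ligands of CD226, was at 1005 and 258 CPM against 1080, 1266 and 1127 CPM (0.22, SE 0.25, edgeR adjusted p = 0.788). Disease replicates 4 and 5 were above control replicate 1 in all 3 genes and in Ctla4, and disease replicate 3 was below it in Lag3, Havcr2 and Ctla4. Tox, a transcription factor of exhausted T cells, was at 339 and 172 CPM against 263, 491 and 409 CPM (0.24, SE 0.39, edgeR adjusted p = 0.853). Transcripts of all of Ctla4, Lag3, Tigit and Havcr2 were found together in 26.6% of the members of control replicate 1 and in 12.8, 34.6 and 35.4% of those of disease replicates 3, 4 and 5, without thinning, at median depths of 5139, 3615, 4017 and 4561 UMIs. The gene that fell was Nr4a2, a nuclear receptor induced by antigen receptor signals, at 2068 and 2062 CPM in control hearts against 1062, 950 and 837 CPM in disease hearts (-1.12, SE 0.23, edgeR adjusted p = 0.0388).

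None of 18 costimulation and activation genes passed the test, and their median was 0.39. Icos, a costimulatory receptor of activated T cells, was at 259 and 85.9 CPM in control hearts against 316, 670 and 547 CPM in disease hearts (log2 fold change 1.03, SE 0.45, edgeR adjusted p = 0.362). Tnfrsf9 (4-1BB, seen on recently stimulated cells) was at 574 and 85.9 CPM against 842, 937 and 726 CPM (0.55, SE 0.28, edgeR adjusted p = 0.474). In both genes all 3 disease libraries were above control replicate 1, as in 23.1% of all tested genes. The 85.9 CPM of control replicate 2 is 2 UMIs. Ly6c2, a surface protein of memory CD8 T cells and monocytes, was at 47.8 and 129 CPM against 346, 117 and 243 CPM (2.24, SE 0.60, edgeR adjusted p = 0.0936), and control replicate 2 exceeded disease replicate 4.

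The killer lectin receptors, which natural killer cells and some effector CD8 T cells carry, had the largest median of the 15 lists at 1.27 (0.82 without disease replicate 5), with 0 of 10 genes past the test. Klrd1 (CD94) was at 580 and 301 CPM in control hearts against 519, 1149 and 929 CPM in disease replicates 3, 4 and 5 (log2 fold change 0.62, SE 0.44, edgeR adjusted p = 0.672). Klrc1 (NKG2A, the inhibitory partner of CD94) was at 125 and 0 CPM against 143, 320 and 273 CPM (1.04, SE 0.48, edgeR adjusted p = 0.406). Klra3 (an inhibitory Ly49 receptor with near-identical family members) was at 7.06 and 0 CPM against 0, 83.1 and 32.0 CPM. Disease replicates 4 and 5 were the high libraries in each of these genes, and disease replicate 3 was below both.

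**Figure D3:**
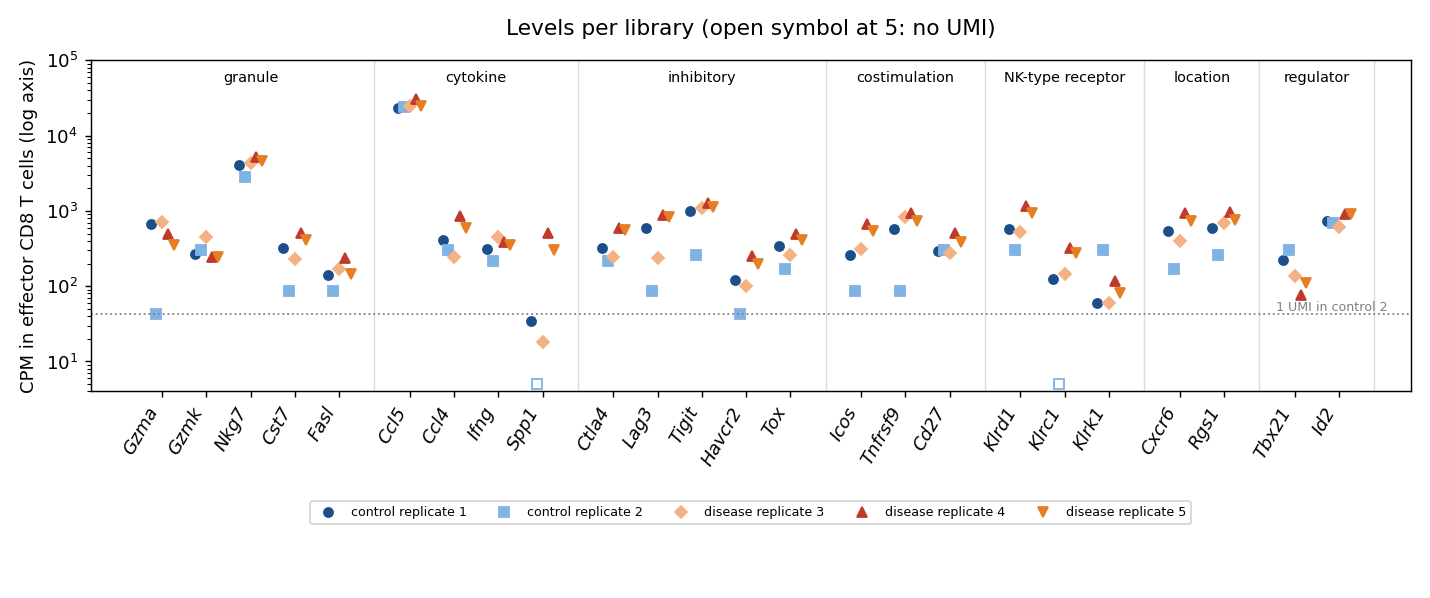
CPM in effector CD8 T cells (log axis) for genes of the lists (x axis, grouped by role); each symbol is one library and an open symbol at 5 marks no UMI. Disease 4 and 5 lie together above control 1 for Lag3, Havcr2, Icos and Klrd1, and disease 3 lies below disease 4 and 5 for each of them.

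No effector transcription factor passed (0 of 16, median 0.01, or -0.14 to 0.04 with 1 disease library left out). Tbx21 (T-bet, which drives the effector program) was at 221 and 301 CPM in control hearts against 137, 75.5 and 110 CPM in disease hearts, all lower than both controls (log2 fold change -1.09, SE 0.37, edgeR adjusted p = 0.195). All 3 disease libraries were below control replicate 1 in 3001 genes (29.0%), and the share of genes below both controls was not counted in members. Of the memory and naive genes 0 of 17 passed (median 0.26, or 0.09 without disease replicate 3), and of the residence genes 0 of 12 (median 0.04, and -0.03 to -0.01 with 1 disease library left out). Cxcr6 was at 542 and 172 CPM against 400, 936 and 733 CPM (0.39, SE 0.46, edgeR adjusted p = 0.791). Of the homing and adhesion genes 1 of 18 fell: Itgb1, the beta chain of integrins that bind matrix and VCAM-1, at 330 and 430 CPM against 149, 112 and 116 CPM (-1.41, SE 0.30, edgeR adjusted p = 0.046). Glycolysis (0 of 16, median 0.31, or 0.19 without disease replicate 4) and cell survival and death genes (0 of 14, median 0.31) held no call.

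Of 35 genes of the interferon response 0 rose and 1 fell, with a median log2 fold change of 0.39 that turned to -0.01 without disease replicate 4. The gene that fell was H2-D1, a classical MHC class I heavy chain, at 3924 and 4596 CPM in control hearts against 543, 578 and 522 CPM in disease replicates 3, 4 and 5 (-2.82, SE 0.21, edgeR adjusted p = 0.00221). The endothelial-rule cells of the same libraries had 4107 and 3424 CPM of H2-D1 in the controls and 669, 958 and 709 CPM in disease hearts. H2-D1 has near-identical relatives among the MHC class I genes, and how reads between them were counted is not given in the sources used here.

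Cytokine receptor and feedback genes held 2 falls in 24. Socs1, the main brake on Jak-Stat signals of interferon-gamma, was at 98.3 and 215 CPM in control hearts against 11.9, 7.72 and 7.52 CPM in disease hearts (log2 fold change -3.59, SE 0.35, edgeR adjusted p = 0.00445). Socs3, which limits interleukin 6 family signals, was at 91.7 and 85.9 CPM against 35.8, 29.6 and 24.0 CPM (-1.67, SE 0.35, edgeR adjusted p = 0.0423). All disease libraries were below both controls in each gene, as they were in endothelial-rule cells for Socs1, at 36.7 and 27.0 CPM against 8.53, 18.8 and 12.7 CPM. Of 20 receptor signalling genes 1 fell, Dusp2 (a phosphatase that switches off MAP kinases), at 218 and 387 CPM against 83.6, 48.2 and 42.8 CPM (-2.02, SE 0.38, edgeR adjusted p = 0.0319).

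Immediate early and stress genes, which also respond to tissue digestion, held 3 falls in 17 and had a median log2 fold change of -0.41 (-0.26 without disease replicate 4). Nfkbia, the inhibitor that NF-kappaB induces against itself, was at 387 and 258 CPM in control hearts against 137, 54.7 and 64.9 CPM in disease hearts (-2.32, SE 0.43, edgeR adjusted p = 0.0319). Dnajb1, a heat shock cochaperone, was at 310 and 215 CPM against 113, 54.7 and 54.5 CPM (-2.19, SE 0.40, edgeR adjusted p = 0.0307). Atf3, a stress-induced transcription factor, was at 124 and 85.9 CPM against 23.9, 22.4 and 31.5 CPM (-2.20, SE 0.35, edgeR adjusted p = 0.0205). In endothelial-rule cells Nfkbia was at 792 and 566 CPM against 311, 156 and 178 CPM, Atf3 at 632 and 395 CPM against 107, 114 and 134 CPM, and Dnajb1 at 369 and 277 CPM against 94.8, 76.0 and 86.9 CPM. The groups did not overlap for these genes in either cell type.

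Beyond the lists, the 12 largest falls among genes of at least 5 log2 CPM lay between -4.13 and -6.96 on the log2 scale. H2afj, a replication-independent histone H2A, was at 254 and 301 CPM in control hearts against 0, 1.1 and 3.76 CPM in disease replicates 3, 4 and 5 (-6.96, SE 0.58, edgeR adjusted p = 0.00299). Pfn1 (profilin, which supplies actin monomers to growing filaments) was at 3283 and 3436 CPM against 101, 109 and 138 CPM (-4.77, SE 0.26, edgeR adjusted p = 7.16e-04). Cox5a, a subunit of mitochondrial cytochrome c oxidase, was at 437 and 258 CPM against 11.9, 14.7 and 21.2 CPM (-4.65, SE 0.36, edgeR adjusted p = 0.00248). The remaining 9 were Rnaset2a and Rnaset2b (near-identical RNase T2 copies whose reads cannot be told apart with certainty), Snrpf (a core protein of the splicing particles), Ndfip1 (an adaptor of Nedd4 ubiquitin ligases that restrains T cell activation), Pgls (an enzyme of the pentose phosphate pathway), Crlf2 (the TSLP receptor chain), Ndufb2 (a subunit of respiratory complex I), Ptpn18 (a tyrosine phosphatase) and Cmtm7 (a MARVEL domain membrane protein). All 12 were higher in both controls than in any disease library. In control replicate 2 a single UMI is 43.0 CPM, which is above most disease values of these genes. That library had 1 UMI each of Crlf2 and Cmtm7, 2 of Rnaset2a and 3 each of Pgls and Ndufb2. The rule that named them required all disease libraries to be below control replicate 1, the control in the fit, as 29.0% of all tested genes were.

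These falls were shared by other cells of the same libraries. Of the 382 genes that fell in effector CD8 T cells, 364 (95.3%) were lower in all 3 disease libraries than in both controls in endothelial-rule cells, where 21.8% of all tested genes were. In cells chosen by Col1a1, Col3a1 and Dcn (fibroblast-rule cells) the number was 370 (96.9%, against 25.9% of all tested genes). Against control replicate 1 alone, 347 (90.8%) were lower in all disease libraries in CD4 T cells, where 33.7% of all tested genes were, and also 347 in the other CD8 T cells, where 36.6% of all were. Against both controls the numbers were 265 in CD4 T cells (69.4%, against 13.6% of all tested genes) and 297 in the other CD8 T cells (77.7%, against 15.6%). Pfn1 in endothelial-rule cells was at 850 and 773 CPM in control hearts against 69.2, 56.8 and 65.8 CPM in disease hearts. Genes that fell had a median GC content of 61.3% in the first 300 transcript nucleotides, against 56.3% over all genes. Across 5834 genes above 4 log2 CPM the fold change and that GC content had a Spearman rho of -0.328, a description over genes that share the same libraries. With a GC trend removed from each library, an alternative chosen after seeing the data, 214 genes passed in place of 386, and 8 of the named genes were no longer called. Nr4a2, Socs3, Itgb1, Dnajb1, Dusp2, Nfkbia, Ndufb2 and Gpr183 were then at -0.70, -1.02, -1.25, -1.52, -1.54, -1.94, -4.38 and 2.66 on the log2 scale. The batches of the libraries are not given in the sources used here, so batch and genotype cannot be told apart.

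**Figure D4:**
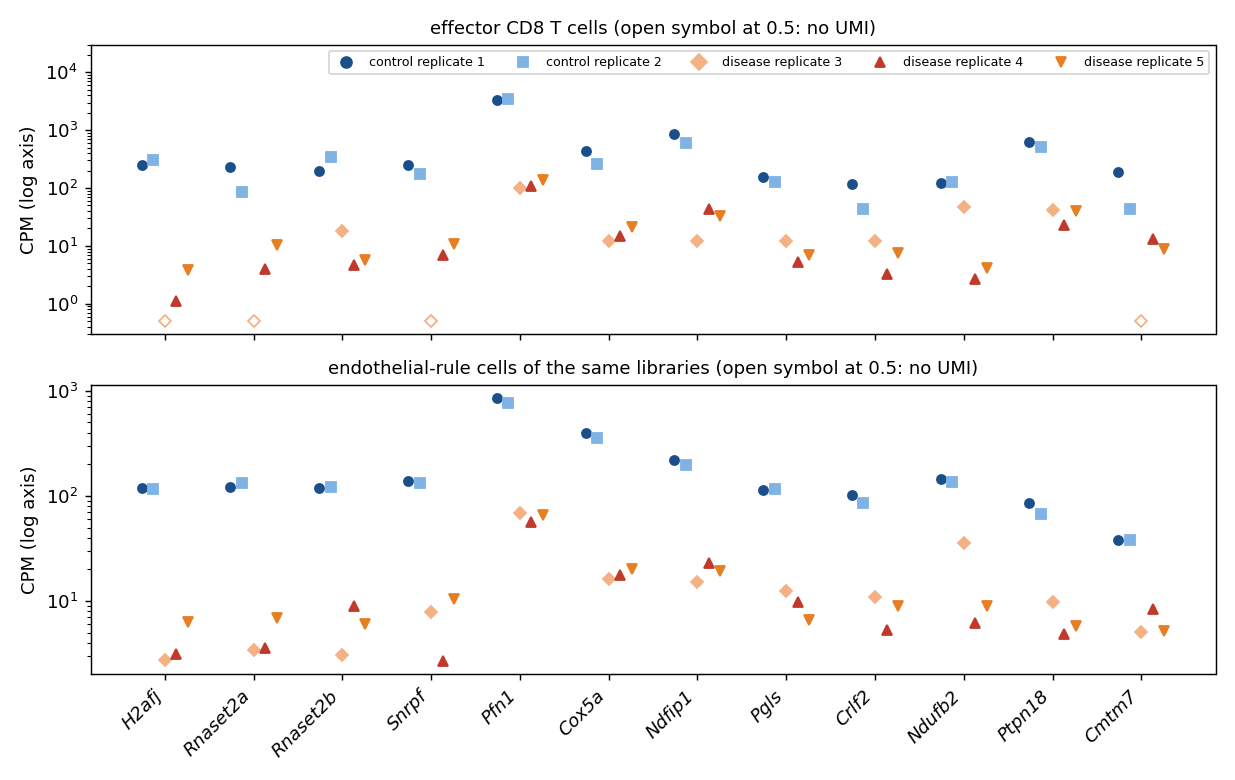
CPM (log axis) of the 12 genes with the largest falls (x axis) in effector CD8 T cells (upper panel) and in endothelial-rule cells (lower panel); each symbol is one library and an open symbol at 0.5 marks no UMI. The control symbols lie above the disease symbols for every gene in both panels. In the upper panel a single UMI in control 2 is 43.0 CPM.

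The 4 genes that rose were Tcrg-V3, Lars2, Trav6n-6 and Gpr183. Lars2, the mitochondrial leucyl-tRNA synthetase, was at 357 and 1117 CPM in control hearts against 997, 962 and 1185 CPM in disease hearts (log2 fold change 1.57, SE 0.29, edgeR adjusted p = 0.0305). Control replicate 2 was within the range of the disease libraries, and with it included the edgeR adjusted p was 0.128. Control replicate 1 was the lowest library in endothelial-rule cells too, where Lars2 was at 668 and 2204 CPM against 2467, 2168 and 2647 CPM. Gpr183 (EBI2, an oxysterol receptor that guides lymphocytes within tissue) was at 4.89 and 129 CPM against 47.8, 24.3 and 38.1 CPM, so that control replicate 2 was the highest, with 3 UMIs (2.77, SE 0.56, edgeR adjusted p = 0.0391, and 0.082 with control replicate 2). Tcrg-V3, a gamma chain V segment, was at 0 CPM in both controls and at 17.9, 33.7 and 34.3 CPM in disease hearts (edgeR adjusted p = 0.00847). The summed gamma-delta T cell markers, given with the label check, were also highest in disease replicates 4 and 5, and their part in the rise of Tcrg-V3 was not tested. Trav6n-6, an alpha chain V segment, was at 1.09 and 0 CPM against 5.97, 49.0 and 52.7 CPM (5.30, SE 1.03, edgeR adjusted p = 0.0347). Tcrg-V3 and Gpr183 were singled out after their values were seen, since 4 genes rose in all.

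Whether the change differed between effector CD8 and CD4 T cells (Cd4 found, no Cd8a or Cd8b1) was tested with libraries as blocks in the 4 libraries with at least 10 cells of both. Of 6135 genes tested, 70 differed (1.14%), 40 with a more positive change in effector CD8 T cells (0.652%) and 30 with a more negative one (0.489%). The p-values of this fit drew almost wholly on a spread shared over genes. They do not measure how far a single gene varied between libraries. Several of these genes mark other heart cells, and the CD4 T cells behind the test numbered 41 in control replicate 1 and 19, 133 and 37 in the disease libraries. H2-Ab1, an MHC class II chain of antigen-presenting cells, was at 96.6 CPM in effector CD8 T cells of control replicate 1, while disease replicates 3, 4 and 5 had 11.9, 149 and 111 CPM. In CD4 T cells it was at 993 CPM and at 0, 122 and 54.8 CPM, so the single high value lay in the CD4 T cells of control replicate 1. Pi16, a gene of adventitial fibroblasts, had the same high value there, at 466 CPM against 0 to 27.3 CPM in disease hearts. The part of other cells' RNA in these terms was not tested.

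Among list genes, Ccl3 (a chemokine for monocytes and T cells) was at 234 CPM in effector CD8 T cells of control replicate 1 and at 23.9, 314 and 246 CPM in disease hearts. In CD4 T cells Ccl3 was at 10.0 CPM and at 0, 467 and 130 CPM, and a single UMI in the CD4 T cells of control replicate 1 is 5.02 CPM. The difference of the changes was -4.58 on the log2 scale. Klrd1 had a difference of -3.92 (edgeR adjusted p = 0.00124), which ran from -9.74 to -1.75 over 7 alternatives. Ccl4, Ccr7, Bcl2 and Iigp1 also had negative terms. Over 7 alternatives Bcl2 was called in 4 and Iigp1 in 1. With control replicate 2 included, 11 of 3363 genes tested passed in place of 70 of 6135, all with positive terms. No negative term passed there and these 6 list genes lost the call (edgeR adjusted p between 0.134 and 1). Their terms stayed negative in every alternative.

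The antigen receptor segments that led among the members differed from library to library. A beta chain V segment (Trbv) was assigned where a member had UMIs of exactly 1 such segment: 224, 3, 34, 902 and 271 members in the order of the libraries. No Trbv UMI was found in 11, 0, 0, 92 and 8 members, and the remaining members had more than 1 segment. In control replicate 1, Trbv13-2 was carried by 79 of 224 (35.3%, 95% Wilson interval 29.3 to 41.7), followed by Trbv4 with 37 and Trbv1 with 19. In disease replicate 4, Trbv2 was carried by 254 of 902 (28.2%, 25.3 to 31.2), followed by Trbv19 with 140 and Trbv15 with 78. In disease replicate 5, Trbv19 was carried by 95 of 271 (35.1%, 29.6 to 40.9), followed by Trbv20 with 29 and Trbv3 with 23. In disease replicate 3 the first segment, Trbv3, was found in 6 of 34. No library had the same first segment as another among these 4.

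The evenness of segment use was summarised by the inverse Simpson index, the number of equally used segments that would give the same chance of drawing the same segment in 2 draws. It was 5.72 in control replicate 1 and 9.97, 7.36 and 6.18 in disease replicates 3, 4 and 5. In the other CD8 T cells it was 6.87, 9.98, 15.5 and 9.85 in the same libraries, so segment use was less even in effector cells in 3 of the 4 libraries and nearly equal in disease replicate 3. These values have no test, and the number of cells behind them differed.

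In several libraries most cells of a leading beta segment that had UMIs of exactly 1 alpha segment (Trav) had the same one. Such cells were a part of the whole, for example 113 of 254 Trbv2 and 35 of 140 Trbv19 cells in disease replicate 4. Several Trav segments have near-identical copies, and no receptor sequence was read here. In disease replicate 4, 111 of 113 Trbv2 cells with exactly 1 Trav had Trav7-3 (98.2%), against 5 of 289 of the other members (1.73%). Trbv15 went with Trav6n-6 in 32 of 36 cells (88.9%, against 1 of 366), and Trbv19 with Trav17 in 22 of 35 (62.9%, against 3 of 367). In disease replicate 5, Trbv19 went with Trav3-3 in 42 of 49 cells (85.7%, against 1 of 91), so the same beta segment had another alpha partner in each of these libraries. The other leading segments there were less uniform, with 2 of 6 Trbv20 cells and 5 of 13 Trbv3 cells on their most frequent Trav, and disease replicate 3 had 2 of 4 Trbv3 cells. In control replicate 1, Trbv4 went with Trav4-3 in 15 of 17 cells (88.2%, against 2 of 87), Trbv1 with Trav7-3 in 6 of 10, and Trbv13-2 with Trav3-4 in 13 of 34 (38.2%, against 3 of 70). A Trbv UMI was also found in 61 of 804 endothelial-rule cells of disease replicate 4, which should have none.

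**Figure D5:**
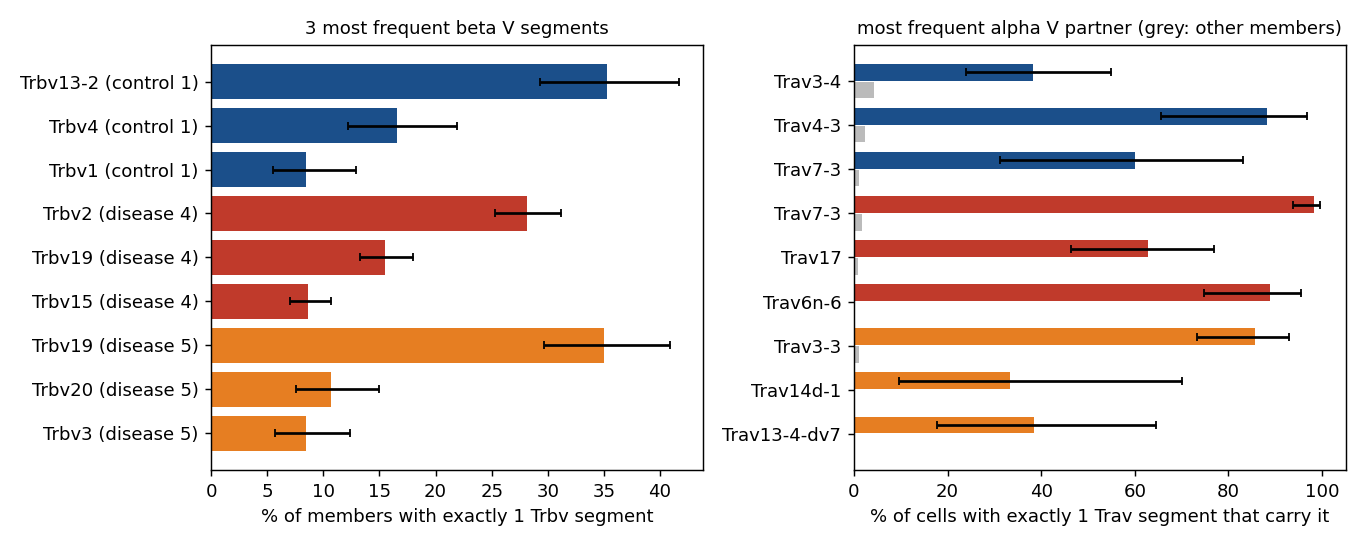
Left, percent of effector CD8 T cells with exactly 1 Trbv segment that carried each of the 3 leading segments of a library; right, percent of cells with exactly 1 Trav segment that carried the most frequent partner, in cells with that Trbv (coloured) and in other members (grey), with 95% Wilson intervals. Trbv2 with Trav7-3 in disease 4 and Trbv19 with Trav3-3 in disease 5 reach 98.2 and 85.7%, and the other members stay at or below 4.29%.

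The cells of the leading segment were set against the members with another single Trbv in the 3 libraries with the most members, a description chosen after the values were seen. Klrd1 was at 904 against 481 CPM in control replicate 1, at 1566 against 870 CPM in disease replicate 4 and at 1235 against 818 CPM in disease replicate 5. Tnfrsf9 was at 697 against 500 CPM, 1054 against 801 CPM and 973 against 602 CPM. Both genes were thus higher in the leading segment's cells of each library. Gzmk was lower there, at 126 against 348 CPM, 118 against 304 CPM and 194 against 213 CPM. The summed killer lectin list was 2.07, 1.75 and 1.21 times as high in the leading segment's cells. In disease replicate 3, with 6 Trbv3 cells against 28, it was 0.229 times as high. Those cells were also deeper, with medians of 5578 against 4732, 4425.5 against 3617 and 4967 against 4272.5 UMIs per cell, and the part of depth was not tested.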

How the data were processed

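The authors deposited whole-number UMI counts, genes by barcodes. Per the file headers they were written by Cell Ranger 3.1.0. The submitters' processing notes also name Cell Ranger 3, Seurat 3, GRCh38 and mm10. How cells were called is not given in the sources used here. Barcodes were selected on raw UMIs by the rule in the opening, and the members and gene lists were chosen with earlier results of these data known. Counts of members were summed per library (the replicate) and compared in edgeR 4.0.16 under R 4.3.3 (quasi-likelihood F test after TMM and filterByExpr, Benjamini-Hochberg adjustment over all genes, threshold 0.05). SEs are log2 fold changes divided by the root of F. Libraries with fewer than 10 members stayed out. The comparison with CD4 T cells used a class by group term with libraries as blocks. CPM values use the plain sum of a library's members. Shares carry 95% Wilson intervals for counting error only, and means were compared with exact permutation tests. Doublets were called with Scrublet in scanpy 1.11.5 and kept, with their removal as an alternative. In simulated counts on 9659 genes, the effector fit recovered 94.5% of 200 genes changed by 3 on the log2 scale, with 2 false calls. The CD4 comparison recovered 55.3% of 197 on 5730 genes, with 4 false calls. Whether these figures hold for the measured counts was not tested. All genes of the lists could be named, with the 12 largest rises and falls of at least 5 log2 CPM in which the disease libraries all lay beyond control replicate 1, and the 5 largest terms each way in the CD4 comparison. Alternatives were DESeq2 1.42.0, RLE scaling, other filters, thinned sums, stricter members and leaving out each library. Sums with control replicate 2 and the GC correction (first 300 transcript nucleotides) were added after seeing the data. The values of 2 list genes are not reported here.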

Additional observations from a re-analysis of the deposited data

Results flagged for a closer look

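The change between disease and control differed between effector CD8 and CD4 T cells in 70 of 6135 genes (edgeR class by group term, adjusted p under 0.05). These p-values drew almost wholly on a spread shared over genes and do not measure a single gene's spread between libraries. The values below are the effector CD8 change minus the CD4 change on the log2 scale. Where a class was at 0 in control replicate 1 the fitted size depends on the prior count and is no bound.

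The 5 most positive terms were those of Trbv15 (11.33), Pi16 (4.69), Ackr3 (4.36), H2-Ab1 (3.82) and H2-Eb1 (3.20). Trbv15 was at 0, 0, 746 and 16.9 CPM in effector CD8 T cells of control replicate 1 and disease replicates 3, 4 and 5, and at 547, 258, 174 and 432 CPM in CD4 T cells. The 5 most negative were those of Rgs5 (-11.98), Trbv17 (-11.73), Trav4-3 (-11.34), Ptprb (-10.55) and Flt1 (-10.10), and each of these genes was at 0 in the CD4 T cells of control replicate 1. Rgs5 marks pericytes, and Ptprb and Flt1 mark endothelial cells. Rgs5 was at 52.1 CPM in effector CD8 T cells of control replicate 1 and at 1162 CPM in the CD4 T cells of disease replicate 3.

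Of the lists, Ccl3 (-4.58), Ccl4 (-2.14), Klrd1 (-3.92), Ccr7 (-2.03), Bcl2 (-3.06) and Iigp1 (-1.93) had negative terms. With control replicate 2 included, none of these 6 and none of the 5 most negative terms passed (0 negative calls and 11 positive), and Trbv15 also lost the call (edgeR adjusted p = 0.798).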

How the results depend on the processing

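No paired analysis was possible because the control and disease libraries share no replicate numbers. The difference in the share of kept barcodes ran from 1.20 to 7.86 percentage points when each library was left out. The difference in the share of T cells ran from -6.06 to 46.7 points and that in the share of CD8 T cells from -11.3 to 63.0 points, and both were negative without control replicate 2. In place of 386 changed genes in effector CD8 T cells, DESeq2 gave 119, every gene with at least 1 count gave 981, sums thinned to the smallest library gave 30, control replicate 2 in place of control replicate 1 gave 5 and the GC correction gave 214. Leaving out each disease library gave 0 to 390, the 0 without disease replicate 3. The 4 rises among these genes became 54 with every gene with at least 1 count, 22 with control replicate 2 included, 8 by DESeq2 and 0 with thinned sums or with control replicate 2 in place of control replicate 1, and leaving out each disease library gave 0 to 29. In place of 70 genes that differed from CD4 T cells, RLE scaling gave 38, removal of doublets 40 and inclusion of control replicate 2 gave 11. Leaving out each disease library gave 26 to 122. Other alternatives stayed within 1.5 times the totals of 386 and 70. Gzma turned to 0.28 with control replicate 2 and to 4.24 with it in place of control replicate 1. Gzmk turned to -0.0097 with members chosen by Gzmb and Prf1 alone, and leaving out each disease library gave -0.14 to 0.36. Lag3 ran from -0.054 to 0.52 in the same way, negative without disease replicates 4 and 5, and Gpr183 to -1.28 with control replicate 2 in place of control replicate 1. Over the named genes of the effector fit, 529 of the refits kept direction and side of the threshold, 90 lost the call, 8 gained it and 7 turned. Without disease replicate 3 the direction turned in 1 named gene. Recomputed under RLE scaling or without 1 disease library, 72 list medians moved by less than the spread between disease libraries and 8 by more. Among the functional lists, cytotoxic granule genes went from 0.30 to 0.20, homing genes from 0.42 to 0.30 and survival genes from 0.31 to 0.22 without disease replicate 3. Homing genes went to 0.53 without disease replicate 5, and cytokine genes from 0.36 to 0.16 without disease replicate 4, where the interferon and inhibitory receptor medians (0.39 and 0.21) turned to -0.01 and -0.05. The killer lectin median ran from 0.82 to 1.57. With 1 control library in the fit and 6 members in the other, depth limits what the control arm can show. The causes of these changes were not tested.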

Other observations

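Some list genes stood apart in single disease libraries and were picked here after their values were seen. Psmb8, a subunit of the immunoproteasome that cuts peptides for MHC class I, was at 616 and 387 CPM in the effector CD8 T cells of control hearts against 692, 67.0 and 258 CPM for disease replicates 3, 4 and 5. Endothelial-rule cells had 598 and 488 CPM of Psmb8 in the controls and 491, 101 and 212 CPM in disease, so disease replicate 4 was the lowest library in both. Id3, an inhibitor of E proteins that is kept in memory T cells, was at 124 and 43.0 CPM against 143, 18.6 and 142 CPM in effector CD8 T cells, and at 1726 and 1884 CPM against 2304, 343 and 2188 CPM in endothelial-rule cells. Disease replicate 4 was again the lowest. Emb, which encodes the membrane protein embigin, was at 276 and 258 CPM against 674, 70.6 and 384 CPM in effector CD8 T cells.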
